A study of Homo sapiens with 29 samples.

Results

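The genes described here encode the machinery of the DNA replication fork: 34 named genes for the partners of the replicative helicase, the replicative polymerases, the sliding clamp and its loader, factors for lagging strand maturation, the RPA complex, fork protection, chromatin assembly and control of origin licensing. They were chosen by name, as the rows of both count tables that carry these symbols, and 34 of 34 were found with 1 identifier each among the 63677 features of a table. The study sequenced total RNA of C4-2 and 22Rv1, which are human prostate cancer cell lines that grow without testicular androgen and express the androgen receptor. C4-2 cells were left as controls (Ctrl) or treated for 24 h with NU7441, an inhibitor of the DNA repair kinase DNA-PK, with CC-115, which is known to act on the TOR kinase as well as on DNA-PK, with CC-223, an inhibitor of the TOR kinase, with enzalutamide (Enza), an androgen receptor antagonist, or with Enza together with 1 of the 3 inhibitors, each compound at 1 µM, giving 8 groups of 3 libraries. 22Rv1 cells were given no inhibitor (Control, 3 libraries) or 1 µM CC-115 for 24 h (2 libraries). All groups were grown in hormone-proficient medium, and the labels name no vehicle and do not say whether replicates were separate cultures, so that p-values measure the spread between these libraries, which may be technical.

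At a replication fork the CMG helicase, made of the MCM ring with CDC45 and the GINS complex, unwinds the parental DNA. Polymerase alpha-primase lays down primers, polymerase epsilon extends the leading strand, polymerase delta extends the lagging strand, and both are held on the template by the PCNA clamp, which the RFC complex loads. RPA coats the exposed single strand, FEN1, DNA2 and LIG1 process and join the lagging strand fragments, CLSPN, TIMELESS and TIPIN stabilise the fork and pass stalling signals to the checkpoint kinases, and CAF-1 puts histones onto the new DNA. Many of these genes are transcribed mainly in cells that enter S phase, under the E2F factors, so that in bulk RNA fewer replicating cells and less RNA per cell cannot be told apart.

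Total counts lay between 29580404 and 44864694 per C4-2 library and between 31606952 and 44912917 per 22Rv1 library, and 34 of 34 genes passed the filter on low counts in each fit. Levels are given as TMM-scaled CPM, and levels are compared between genes only after division by exon length (FPKM, from the same scaled counts). Enza replicate 1 and CC-115+Enza replicate 1 stood apart from their groups, with a root mean square log2 difference over all genes of 0.648 and 0.662, against 0.273 to 0.468 in the other 22 C4-2 libraries. NU7441 replicate 2 had the lowest value of its group in 34 of 34 genes, CC-115+Enza replicate 1 in 30, and Enza replicate 1 was above the other Enza libraries in 17 genes and below them in 13. The 22Rv1 CC-115 libraries differed from each other by 0.598. Of 10 defining markers of other cell types, PECAM1 had 0 counts in each of the 29 libraries, CD3E 0 to 1, PTPRC 0 to 7, DCN 0 to 7, COL1A2 0 to 30 and LYZ 0 to 41, while COL3A1 had 5 to 104, ACTA2 14 to 153, VWF 1 to 162 and COL1A1 52 to 349. The summed level of the 10 markers, 5 of which passed the filter in C4-2, was 10.3 to 11.7 CPM in Ctrl, 6.20 to 7.12 CPM with CC-115, 6.56 to 7.53 CPM with NU7441, 7.95 to 10.5 CPM with CC-223 and 11.3 to 21.1 CPM with Enza. In 15 genes some exon bases are shared with another feature, and the strand setting of the counting is not given in the sources used here. By share of bases the largest overlaps were in GINS4 and TIPIN. In GINS4 21.2% of exon bases lie opposite a feature with 155 counts over all C4-2 libraries. In TIPIN 21.0% are shared with the ribosomal protein pseudogene RPL9P25, which had 0. Smaller overlaps involve neighbours with more counts. On the same strand, FEN1 shares 2.0% with FADS2 (865317 counts, against 108125) and PRIM1 1.4% with NACA (777087, against 37130). RFC4 shares 0.7% with EIF4A2 on the opposite strand (753109, against 69111). Their effect on the counts was not tested.

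With CC-115, the replication fork genes fell nearly as a block in C4-2. A gene is called where its adjusted p is under 0.05 in edgeR's quasi-likelihood test. Of the 34 genes 33 were called lower, against 26% of all genes tested, and 1 was called higher, POLE, the catalytic subunit of polymerase epsilon, against 27.6% of all genes tested. The median log2 fold change of the 34 genes was -1.94, that of all genes 0.03, and the groups did not overlap in any of the 34 genes (33 lower and 1 higher), as in 32.8% (lower) and 34.9% (higher) of all genes tested. The summed level of the 34 genes went from 3443 ± 151 CPM in Ctrl to 1046 ± 29 CPM with CC-115 (SD, n = 3 each). Of 10 proliferation markers that are not fork genes 9 were lower as well, against 26% of all genes tested, with a median of -1.22.

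**Figure D1:**
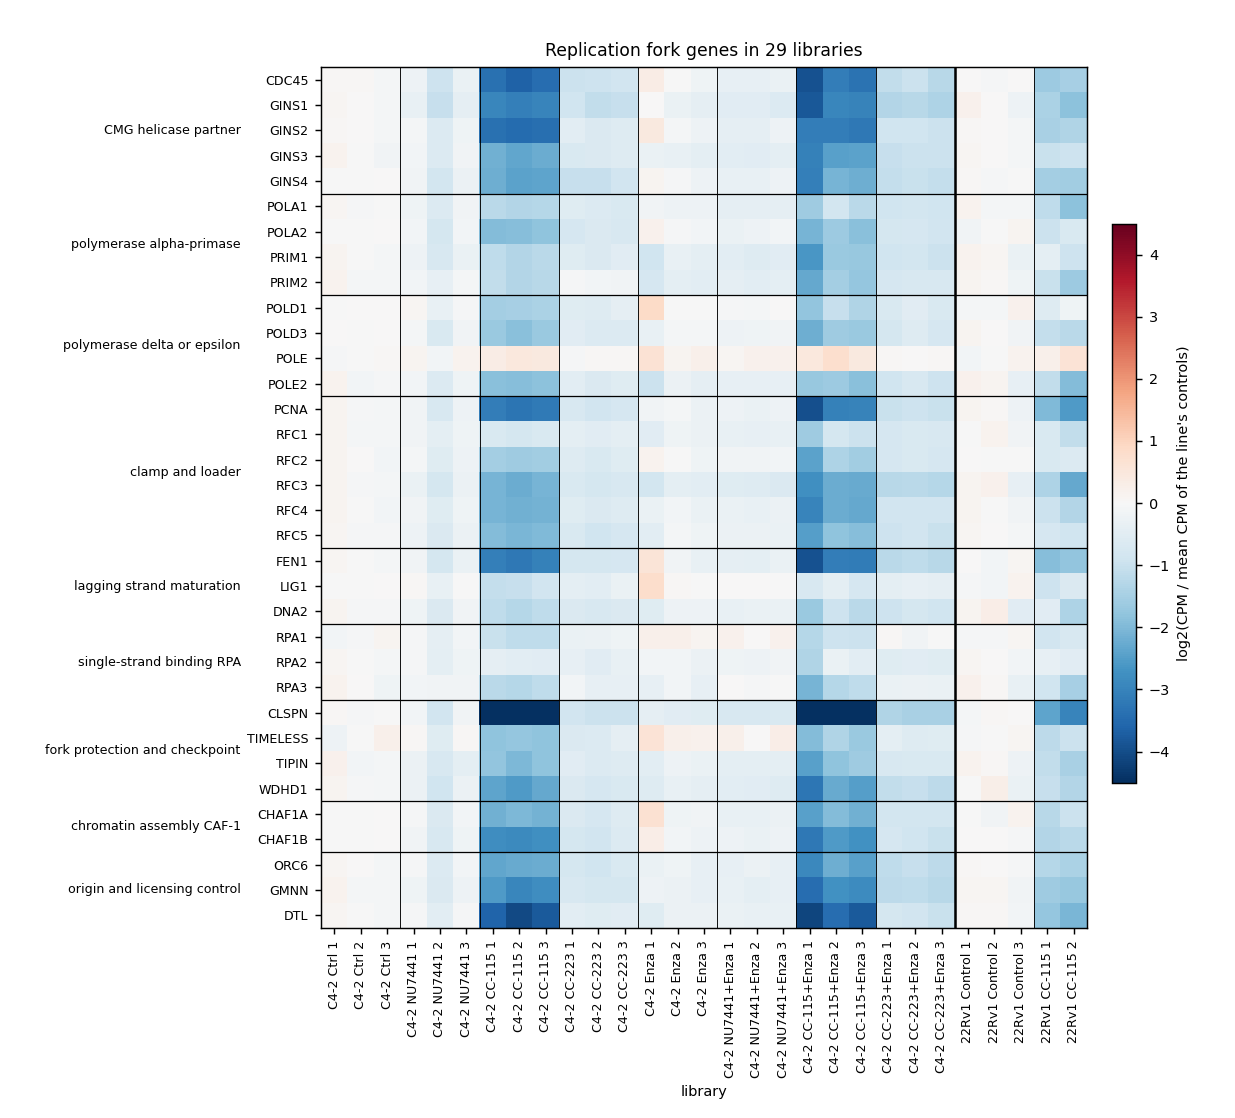
Level of each of the 34 genes (rows, by role) in each of the 29 libraries (columns), as log2 of its CPM over the mean CPM of the controls of the same line; values under -4.5 take the darkest blue. The CC-115 and CC-115+Enza columns are the darkest in every role class, and POLE is the row that turns red there.

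The 4 promoters printed here, each holding an E2F word, are those of 3 genes that fell steeply with CC-115 and, for contrast, of POLE. Each is the 120 bases upstream of a RefSeq transcription start on GRCh38.p14, read 5′ to 3′ on the gene's strand. Capitals mark, on either strand, the E2F words TTTCCCGC, TTTGGCGC, TTTCGCGC and TTTGCCGC and the word CCAAT, which is bound by NF-Y; words can overlap.
DTL, chr1:212035628-212035747, plus strand: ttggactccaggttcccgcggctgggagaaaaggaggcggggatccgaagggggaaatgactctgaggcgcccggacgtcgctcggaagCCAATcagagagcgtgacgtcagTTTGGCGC
GINS2, chr16:85688955-85689074, minus strand: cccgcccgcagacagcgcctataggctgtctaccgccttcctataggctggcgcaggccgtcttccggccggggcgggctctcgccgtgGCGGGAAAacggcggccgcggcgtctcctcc
PCNA, chr20:5126623-5126742, minus strand: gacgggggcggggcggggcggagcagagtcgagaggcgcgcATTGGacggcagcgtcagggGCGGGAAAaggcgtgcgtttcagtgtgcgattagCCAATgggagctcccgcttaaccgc
POLE, chr12:132687343-132687462, minus strand: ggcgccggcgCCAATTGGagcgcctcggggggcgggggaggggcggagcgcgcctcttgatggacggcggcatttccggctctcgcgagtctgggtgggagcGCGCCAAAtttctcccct

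In these stretches an E2F word ends at the base before the start in DTL, and begins 31 bases before the start in GINS2, 59 in PCNA and 18 in POLE. The whole window searched ran from 250 bases before to 50 after a start, and 29 of the 34 genes had an entry (GINS4, POLD3, DNA2, RPA2 and RPA3 had none). Of these 29 genes 14 held at least 1 E2F word (48.28%), against 3.99% of the 27305 genes in the table, and 17 held CCAAT (58.62%), against 39.72%. The 14 genes with an E2F word had a median log2 fold change with CC-115 in C4-2 of -2.19, from -4.53 in CLSPN to 0.43 in POLE. The 15 without it had a median of -1.99, from -3.47 in CDC45 to -0.71 in RFC1. Only the exact words were counted, so these 15 genes are not shown to lack other E2F sites. FEN1 (-3.11) and CHAF1B (-2.81) were among these 15. PCNA has another promoter in the set searched, at chr20:5119909-5120208, which held no E2F word. POLE, the gene that rose, held both words.

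Among the helicase partners 5 of 5 were lower with CC-115. CDC45, which joins the MCM ring at activated origins, was at 100.5, 99.8 and 90.5 CPM in Ctrl and at 9.46, 7.71 and 9.09 CPM with CC-115. Its groups were far apart and its log2 fold change was -3.47 ± 0.18 (SE, adjusted p = 3.4e-14). GINS2, a subunit of the 4-part GINS ring, was at 62.4, 59.7 and 56.6 CPM in Ctrl and at 5.76, 5.40 and 5.70 CPM with CC-115, 9.43% of Ctrl. GINS1 fell by 2.999, GINS4 by 2.33 and GINS3 by 2.24 on the log2 scale, so that GINS subunits, which act as 1 complex, were not lowered to the same share.

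Polymerase alpha-primase was lowered less. Its 4 subunits fell by between 1.21 (PRIM1, the catalytic primase) and 1.88 (POLA2) on the log2 scale. POLA2, the regulatory subunit, was at 64.2, 64.2 and 66.1 CPM in Ctrl and at 16.7, 17.3 and 18.7 CPM with CC-115, a log2 fold change of -1.88 ± 0.14 (SE, adjusted p = 1.6e-11). POLA1, the polymerase itself, stayed at 41.2% of its Ctrl mean.

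The leading and lagging strand polymerases were split. POLE2, the accessory subunit of polymerase epsilon, was at 36.4, 30.4 and 31.6 CPM in Ctrl and at 8.93, 8.67 and 9.04 CPM with CC-115, a log2 fold change of -1.88 ± 0.14 (SE, adjusted p = 3.0e-11). Its catalytic partner POLE moved the other way, from 94.7, 98.6 and 102.6 CPM in Ctrl to 125.3, 137.9 and 134.9 CPM. The lowest treated POLE library was above the highest control, and the log2 fold change was 0.43 ± 0.12 (SE, adjusted p = 0.0027). In polymerase delta, the catalytic subunit POLD1 was at 35.8% of Ctrl and the accessory subunit POLD3 at 30.1%, both called lower. POLE (ENSG00000177084) lies on the minus strand at chr12:133200348-133263951 in hg19, the build of the files, and its merged exons cover 16605 bases.

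PCNA, the clamp, was at 352.7, 308.1 and 299.3 CPM in Ctrl and at 37.3, 32.9 and 34.9 CPM with CC-115. The log2 fold change was -3.19 ± 0.17 (SE, adjusted p = 5.9e-14), which left 10.9% of the Ctrl level of the gene with the highest FPKM of the 34 in Ctrl. Its loader did not follow to the same degree: RFC1, the large subunit particular to the PCNA loader, was at 223.8, 193.3 and 193.4 CPM in Ctrl and at 128.0, 118.1 and 127.2 CPM with CC-115, 61.1% of Ctrl. RFC3, RFC4 and RFC5 were at 22.7%, 23.0% and 25.1% of Ctrl and RFC2 at 33.9%.

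FEN1, the flap nuclease, was at 228.6, 216.8 and 206.2 CPM in Ctrl and at 25.9, 23.2 and 26.2 CPM with CC-115, a log2 fold change of -3.11 ± 0.20 (SE, adjusted p = 1.6e-12). The ligase LIG1 and the nuclease-helicase DNA2 were at 50.5% and 43.7% of Ctrl. RPA3, the small subunit of RPA, was at 84.6, 78.2 and 67.4 CPM in Ctrl and at 33.3, 31.9 and 35.2 CPM with CC-115, a log2 fold change of -1.20 ± 0.15 (SE, adjusted p = 1.4e-07). RPA2 was lowered least of the 33 genes: 87.96, 81.55 and 78.73 CPM in Ctrl and 62.96, 59.61 and 58.40 CPM with CC-115, -0.46 ± 0.15 (SE, adjusted p = 0.015). The RPA2 call was lost without Ctrl replicate 1, without CC-115 replicate 2 and without CC-115 replicate 3, with a highest adjusted p of 0.076.

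CLSPN (ENSG00000092853, minus strand, chr1:36185819-36235568 in hg19), which brings the checkpoint kinase CHK1 to stalled forks, had the lowest fold change of the 34 genes. It was at 77.7, 72.7 and 74.3 CPM in Ctrl and at 3.11, 3.30 and 3.31 CPM with CC-115, 4.33% of Ctrl, a log2 fold change of -4.53 ± 0.15 (SE, adjusted p = 2.1e-17). The fork protection pair TIMELESS and TIPIN was at 29.02% and 27.34% of Ctrl, and WDHD1, which couples polymerase alpha to the helicase, at 18.9%. In CAF-1, CHAF1B was at 43.3, 43.7 and 44.3 CPM in Ctrl and at 6.31, 5.93 and 6.39 CPM with CC-115, a log2 fold change of -2.81 ± 0.16 (SE, adjusted p = 1.2e-13), and CHAF1A was at 23.3% of Ctrl.

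DTL, which directs the licensing factor CDT1 to destruction on PCNA-bound DNA, was at 86.1, 78.5 and 76.0 CPM in Ctrl and at 6.55, 4.81 and 5.81 CPM with CC-115, a log2 fold change of -3.81 ± 0.15 (SE, adjusted p = 3.2e-16). GMNN, the CDT1 inhibitor geminin, was at 14.8% of Ctrl and ORC6, of the origin recognition complex, at 20.7%. By role, the median log2 fold change was lowest for the helicase partners (-2.999) and for licensing control (-2.75) and highest for RPA (-1.10). The classes overlap: POLE2 fell more than TIMELESS, and FEN1 (-3.11) more than the helicase partner GINS1 (-2.999).

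**Figure D2:**
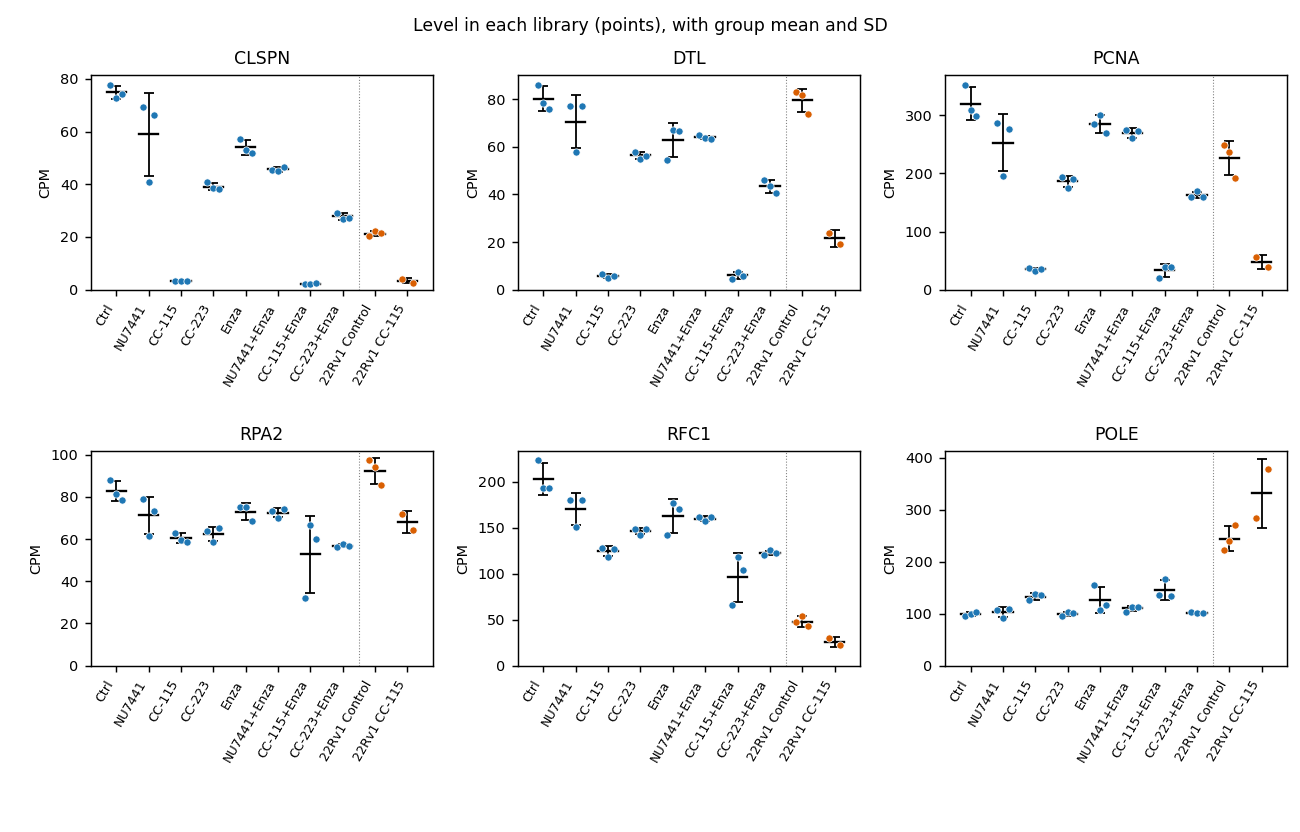
CPM of 6 genes in each library (points), with the group mean (bar) and SD (whisker), for the 8 C4-2 groups (blue) and the 2 22Rv1 groups (orange); each panel starts at 0. CLSPN, DTL and PCNA drop towards the axis in the CC-115 groups, RPA2 and RFC1 drop less, and POLE is higher there than in the controls of its line.

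Because genes fell by unequal amounts, their order by FPKM changed. In Ctrl the order began with PCNA (218 ± 19.5 FPKM), FEN1 (87.7 ± 4.53), RFC3 (65.5 ± 5.53) and RFC2 (64.9 ± 5.33), and it ended with POLE (5.94 ± 0.24) and LIG1 (5.28 ± 0.07; SD, n = 3 each); RFC3 and RFC2 lay within each other's SD. With CC-115 the order began with RPA2 (29.9 ± 1.17 FPKM), PCNA (23.8 ± 1.498) and RFC2 (22.0 ± 0.55). POLE stood 13th of 34 there (7.99 ± 0.40 FPKM), after 33rd in Ctrl, and CLSPN was last at 0.60 ± 0.02 FPKM, after 25th in Ctrl. PCNA stood first in each of the 6 C4-2 groups without CC-115, from 111 ± 3.96 FPKM with CC-223+Enza to 218 FPKM in Ctrl. RPA2 stood first in both groups with CC-115, though at 26.2 ± 9.05 FPKM with CC-115+Enza it lay within the SD of PCNA at 22.5 ± 7.26 FPKM. POLE was between 28th and 33rd in the groups without CC-115 and 8th with CC-115+Enza.

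CC-223, which acts on the TOR kinase, lowered most of the same genes by smaller amounts. Against Ctrl 28 of the 34 were called lower, against 10.9% of all genes tested, and 0 higher. Each of the 28 was also lower with CC-115, a comparison that shares the Ctrl libraries. With 33 of the 34 genes lower with CC-115, that overlap was nearly fixed beforehand. The median log2 fold change was -0.61, that of all genes 0.07, and the summed level was 2255 ± 68.2 CPM (SD, n = 3). GINS1 had the lowest value, at 162.7, 153.1 and 142.7 CPM in Ctrl and at 81.92, 70.93 and 75.05 CPM with CC-223, a log2 fold change of -1.01 ± 0.17 (SE, adjusted p = 8.5e-05). CLSPN was at 40.7, 38.5 and 38.2 CPM with CC-223, below its 3 controls, at -0.94 ± 0.13 (SE, adjusted p = 7.3e-06). The other classes were led by ORC6 (-0.80 ± 0.13, adjusted p = 8.8e-05), PCNA (-0.78 ± 0.16, adjusted p = 7.9e-04), FEN1 (-0.78 ± 0.19, adjusted p = 0.0033), CHAF1B (-0.76 ± 0.15, adjusted p = 4.0e-04), POLA2 (-0.71 ± 0.13, adjusted p = 3.4e-04) and POLD3 (-0.58 ± 0.14, adjusted p = 0.0025; SE throughout). DTL and CDC45 fell steeply with CC-115, and like the other genes called here they were lowered less with CC-223. DTL was at 57.75, 55.03 and 56.33 CPM with CC-223, 70.3% of Ctrl. CDC45 was at 49.1, 50.4 and 53.5 CPM, 52.6% of Ctrl. Both were below their 3 Ctrl libraries. The median of the 34 genes was 65.67% of Ctrl, so CDC45 was among the genes lowered more. No RPA subunit was called; RPA2 was at -0.41 (adjusted p = 0.057), RPA3 at -0.28 (0.17) and RPA1 at -0.25 (0.10). The others not called were LIG1 (-0.39, adjusted p = 0.053), PRIM2 (-0.12, adjusted p = 0.56) and POLE (0.01, 95% interval -0.21 to 0.24).

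Compared directly at the same dose and time, CC-115 left the genes lower than CC-223 did. In that comparison 31 of 34 were called lower with CC-115, against 22.6% of all genes tested, 1 was called higher and 2 were not called, with a median of -1.31 (all genes -0.06). CLSPN led fork protection with -3.59 ± 0.15 (SE, adjusted p = 1.6e-15) and DTL led licensing control with -3.30 ± 0.15 (adjusted p = 6.9e-15). The helicase partners were led by GINS2 at -2.84 ± 0.15 (adjusted p = 7.1e-14), with CDC45 next at -2.54 ± 0.18 (adjusted p = 1.5e-11). The clamp, lagging strand and CAF-1 classes were led by PCNA at -2.41 ± 0.17 (adjusted p = 1.5e-11), FEN1 at -2.34 ± 0.20 (adjusted p = 4.3e-10) and CHAF1B at -2.06 ± 0.16 (adjusted p = 6.9e-11). POLE2 (-1.33 ± 0.14, adjusted p = 3.1e-08), POLA2 (-1.17 ± 0.14, adjusted p = 1.2e-07) and RPA3 (-0.92 ± 0.15, adjusted p = 1.3e-05) led the other classes. POLE was higher with CC-115 than with CC-223, 0.42 ± 0.12 (SE, adjusted p = 0.0047): its CC-223 libraries, at 94.99, 102.6 and 101.1 CPM, overlapped Ctrl. RFC1 (-0.24, 95% interval -0.50 to 0.03) and RPA2 (-0.05, 95% interval -0.35 to 0.25) did not pass; the sign of RPA2 turned in 4 of the fits that left out a library, at 0.03 to 0.05. The general proliferation markers did not follow this order. With CC-115 2 of 10 were lower and 2 higher than with CC-223, with a median of 0.16. Of all 22860 genes tested 5178 were called lower and 4678 higher. The summed level of the markers was 1280 ± 55.2 CPM with CC-115, 1224 ± 6.66 with CC-223 and 2601 ± 151 in Ctrl (SD, n = 3 each). Their part in the result was not tested.

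**Figure D3:**
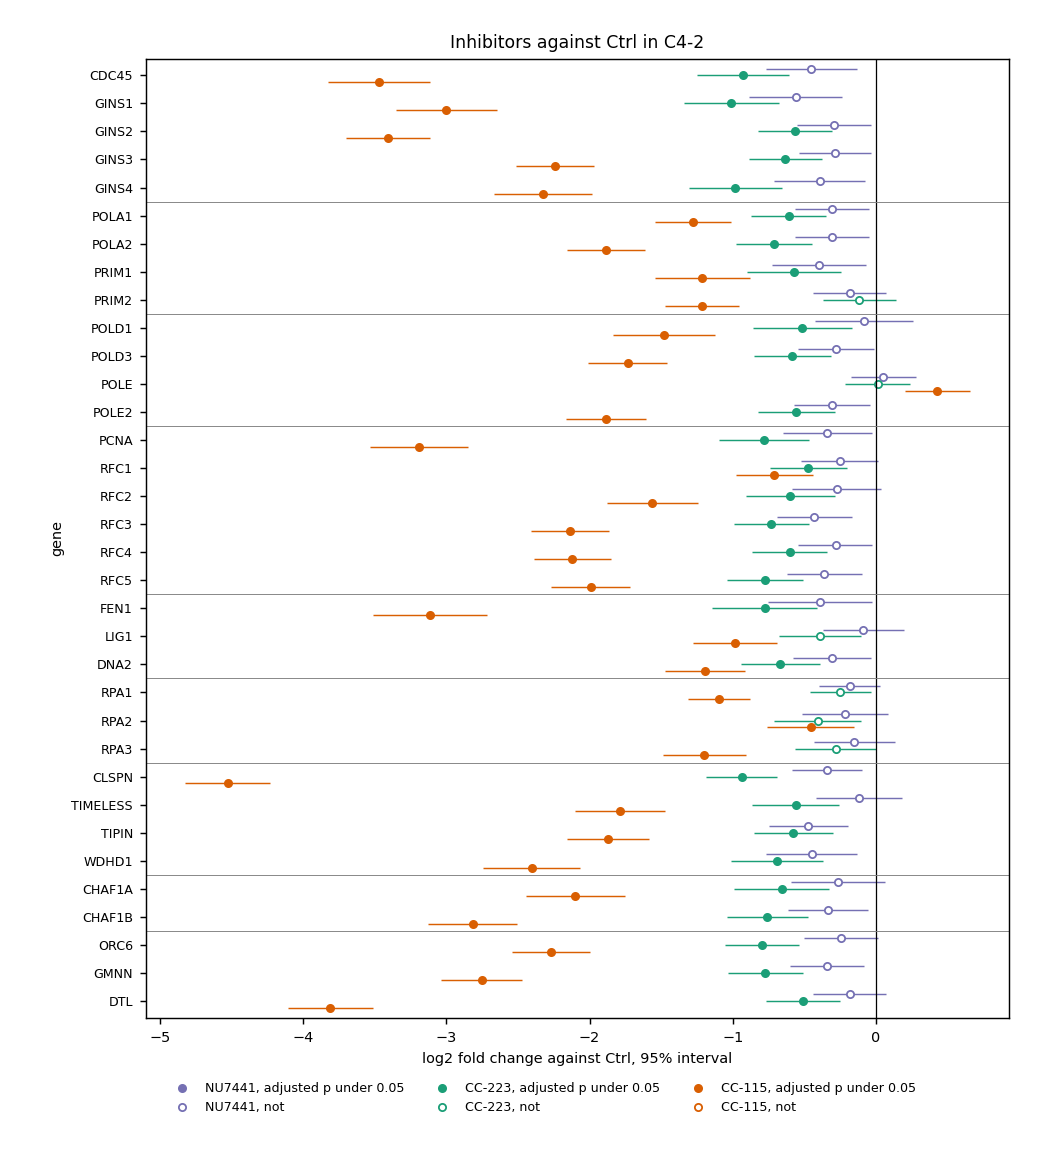
Log2 fold change against Ctrl in C4-2 (x axis, with approximate 95% intervals) of the 34 genes (rows, by role) for NU7441 (purple), CC-223 (green) and CC-115 (orange); filled points have an adjusted p under 0.05. The orange points lie farthest to the left for 33 genes and to the right of 0 for POLE, the green ones lie between 0.01 and -1.01, and no purple point is filled.

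NU7441 gave no call against Ctrl in edgeR's test: 0 of 34, against 1.11% of all genes tested called lower. The values nonetheless leaned down. Of the 34, 33 were below 0, with a median of -0.30 (all genes 0.02). An unadjusted p under 0.05 was found in 21, against 17.1% of all genes tested in either direction. DESeq2 called 3, with no share of all genes given beside it. GINS1 was at 121.0, 74.9 and 115.3 CPM with NU7441, each library below the 3 Ctrl libraries, with a log2 fold change of -0.56 ± 0.17 (SE, adjusted p = 0.061). PCNA was at 287.2, 196.0 and 275.5 CPM (-0.34 ± 0.16, adjusted p = 0.27) and CLSPN at 69.50, 40.99 and 66.45 CPM (-0.34 ± 0.13, adjusted p = 0.13). In each case replicate 2 was well below the other NU7441 libraries. In 22 of the 34 genes the NU7441 libraries, replicates 1 and 3 included, lay below the 3 Ctrl libraries, as in 16.4% of all genes tested. The count depended on which libraries entered the common fit: without Enza replicate 1 and CC-115+Enza replicate 1 the number called lower was 22, against 11.3% of all genes in that fit, and without NU7441 replicate 2 as well it was 11, against 6.23%, a choice made after seeing the data. It was 5 without NU7441 replicate 1, against 1.79%. Of the proliferation markers 7 of 10 were called lower with NU7441, against 1.11% of all genes tested, with a median of -0.62.

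Against NU7441, CC-115 left 32 genes lower (24.5% of all genes tested were lower), POLE higher (0.38 ± 0.12, adjusted p = 0.0083) and RPA2 not called (-0.24 ± 0.15, adjusted p = 0.21). The lowest of their classes were CLSPN (-4.18 ± 0.15, adjusted p = 7.0e-17), DTL (-3.63 ± 0.15, adjusted p = 8.9e-16), GINS2 (-3.11 ± 0.15, adjusted p = 8.3e-15), PCNA (-2.85 ± 0.17, adjusted p = 5.3e-13) and FEN1 (-2.72 ± 0.20, adjusted p = 2.0e-11; SE throughout), with CDC45 at -3.02 between GINS2 and PCNA. CHAF1B (-2.48 ± 0.16, adjusted p = 1.5e-12), POLE2 (-1.58 ± 0.14, adjusted p = 9.2e-10), POLA2 (-1.58 ± 0.14, adjusted p = 4.9e-10) and RPA3 (-1.05 ± 0.15, adjusted p = 1.4e-06) led the other classes. NU7441 and CC-223 were closer: 4 genes were called higher with NU7441, against 3.2% of all genes tested. These were CLSPN (0.59 ± 0.13, adjusted p = 0.0039), GINS4 (0.59 ± 0.16, adjusted p = 0.027), ORC6 (0.55 ± 0.13, adjusted p = 0.0094) and GMNN (0.43 ± 0.13, adjusted p = 0.045). That number ranged from 1 (without NU7441 replicate 1 or 3) to 19 (without NU7441 replicate 2, against 3.91% of all genes in that fit), was 2 without any 1 CC-223 library, and was 27 without Enza replicate 1 and CC-115+Enza replicate 1, against 12.9%.

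Enza alone gave few calls among the genes. Against Ctrl 5 were called lower, against 6.75% of all genes tested, and 1 higher, against 9.35%. PRIM2, the primase partner subunit, was at 61.9, 51.7 and 51.8 CPM in Ctrl and at 33.0, 40.9 and 39.7 CPM with Enza, with no overlap (-0.54 ± 0.13, adjusted p = 0.0052). RFC3 was at 206.5, 180.0 and 178.1 CPM in Ctrl and at 105.8, 138.7 and 136.2 CPM with Enza (-0.57 ± 0.13, adjusted p = 0.0042). PRIM1 (-0.54 ± 0.17, adjusted p = 0.027), POLE2 (-0.50 ± 0.14, adjusted p = 0.013) and CLSPN (-0.47 ± 0.13, adjusted p = 0.011) were the others lower, and POLE was higher (0.36 ± 0.11, adjusted p = 0.035; SE throughout). The POLE libraries with Enza were at 154.8, 107.8 and 116.8 CPM, replicate 1 being the highest, and the call was lost without it and in 8 other of the 14 alternative fits. Without Enza replicate 1 the number called was 3, as it was without Ctrl replicate 1, and a fit of the 2 groups alone called 1. Without both Enza replicate 1 and CC-115+Enza replicate 1 it was 11, all lower, against 11.7% of all genes in that fit. Scaling by RLE factors gave 5 lower and 0 higher. The median of the 34 genes was -0.21 (all genes 0.06), with 23 genes below 0 and 11 above. Their summed level was 3175 ± 242 CPM (SD, n = 3).

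On top of Enza the inhibitors kept their order. CC-115+Enza against Enza left 33 genes lower, against 30.2% of all genes tested, with a median of -1.85 (all genes 0.03) and a summed level of 979 ± 213 CPM (SD, n = 3). CLSPN was at 57.2, 52.9 and 51.9 CPM with Enza and at 1.99, 2.31 and 2.55 CPM with the combination (-4.56 ± 0.15, adjusted p = 1.3e-17). The other classes were led by CDC45 (-3.47 ± 0.18, adjusted p = 3.1e-14), FEN1 (-3.42 ± 0.20, adjusted p = 3.4e-13), DTL (-3.39 ± 0.15, adjusted p = 1.4e-15), PCNA (-3.10 ± 0.17, adjusted p = 9.5e-14), CHAF1B (-2.81 ± 0.16, adjusted p = 1.0e-13), POLD1 (-1.69 ± 0.18, adjusted p = 1.2e-08), POLA2 (-1.86 ± 0.14, adjusted p = 1.7e-11) and RPA1 (-1.24 ± 0.11, adjusted p = 5.2e-10). The Enza libraries were spread widely in FEN1 (172.8 to 321.5 CPM) and POLD1 (73.9 to 137.8 CPM), so the lead of these genes is uncertain. POLE, at 136.1, 167.0 and 133.0 CPM, was not called (0.20 ± 0.12, adjusted p = 0.14). Without Enza replicate 1 POLE was called higher, at 0.42 (adjusted p = 0.0011). The summed level in CC-115+Enza replicate 1 was 746 CPM, the lowest of the 29 libraries.

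CC-223+Enza against Enza left 27 genes lower, against 15% of all genes tested, with a median of -0.68 (all genes 0.01) and a summed level of 1965 ± 39.1 CPM (SD, n = 3). FEN1 (-1.28 ± 0.19, adjusted p = 2.0e-05), CDC45 (-1.17 ± 0.17, adjusted p = 1.1e-05), CHAF1A (-0.999 ± 0.169, adjusted p = 9.2e-05), POLD1 (-0.97 ± 0.18, adjusted p = 2.1e-04), CLSPN (-0.96 ± 0.13, adjusted p = 5.7e-06), GMNN (-0.89 ± 0.13, adjusted p = 2.5e-05), POLA2 (-0.81 ± 0.13, adjusted p = 7.0e-05) and PCNA (-0.81 ± 0.16, adjusted p = 4.9e-04; SE throughout) led their classes. The Enza libraries were spread widely in FEN1 (172.8 to 321.5 CPM), CHAF1A (81.8 to 149.1) and POLD1 (73.9 to 137.8). Values of these genes without Enza replicate 1 are not given here, so their lead is uncertain. No RPA subunit was called here either. POLE was called lower (-0.32 ± 0.12, adjusted p = 0.041). That call was lost in 9 of 14 alternative fits, the fit without Enza replicate 1 among them. Between the combinations, CC-115+Enza was lower than CC-223+Enza in 30 genes, against 26.7% of all genes tested. CLSPN (-3.60 ± 0.15, adjusted p = 1.4e-15), DTL (-2.86 ± 0.15, adjusted p = 5.4e-14), CDC45 (-2.30 ± 0.17, adjusted p = 5.2e-11), PCNA (-2.29 ± 0.17, adjusted p = 2.5e-11), FEN1 (-2.15 ± 0.20, adjusted p = 1.4e-09) and CHAF1B (-1.93 ± 0.15, adjusted p = 1.4e-10) led, with RPA3 (-1.15 ± 0.15, adjusted p = 3.9e-07), PRIM2 (-1.09 ± 0.13, adjusted p = 1.9e-07) and POLD3 (-1.09 ± 0.14, adjusted p = 3.8e-07) in the remaining classes. POLE was higher (0.52 ± 0.12, adjusted p = 5.3e-04), and POLA1 (-0.30 ± 0.13, adjusted p = 0.065), LIG1 (-0.22 ± 0.15, adjusted p = 0.22) and RPA2 (-0.11 ± 0.15, adjusted p = 0.59) were not called. RPA2 turned to 0.15 without CC-115+Enza replicate 1, whose RPA2 level was 32.1 CPM against 66.5 and 59.8 in its group. NU7441+Enza against Enza gave 0 calls in edgeR's test (0.381% of all genes tested were called in either direction), with 6 genes at an unadjusted p under 0.05, against 15.6% of all genes tested, and 0 called by DESeq2.

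Enza added to an inhibitor gave few calls in the common fit. With Enza added to CC-115, 4 of 34 genes were called lower. That share is near the 12.2% of all genes tested, so the number is not particular to these genes. The 4 were PRIM1 (-0.72 ± 0.17, adjusted p = 0.0031), PRIM2 (-0.60 ± 0.13, adjusted p = 0.0017), CLSPN (-0.50 ± 0.16, adjusted p = 0.026) and RFC1 (-0.37 ± 0.14, adjusted p = 0.049). PRIM1 was at 32.0, 28.1 and 30.4 CPM with CC-115 and at 11.4, 22.0 and 21.4 CPM with the combination, so the groups did not overlap and replicate 1 was the lowest. The number fell to 2 without CC-115+Enza replicate 1, and likewise without CC-115 replicate 2 or 3; it rose to 8 and 7 without CC-115+Enza replicate 2 and 3. Scaling by total counts gave 2 lower and 3 higher, beside 1738 and 4451 of the 22860 genes tested. A fit of the 2 groups alone called 0. With Enza added to CC-223, 4 genes were called lower as well, against 6.76% of all genes tested: PRIM2 (-0.61 ± 0.13, adjusted p = 0.0015), RFC3 (-0.53 ± 0.13, adjusted p = 0.0075), CLSPN (-0.49 ± 0.13, adjusted p = 0.0082) and GMNN (-0.41 ± 0.13, adjusted p = 0.044). The number was 2 without CC-223 replicate 1 or CC-223+Enza replicate 2. It was 16 without Enza replicate 1 and CC-115+Enza replicate 1, with no share of all genes given beside it. That fit raised such shares in other comparisons above. Total counts gave 3 lower and 1 higher, beside 1210 and 2096 of the 22860 genes tested. A fit of the CC-223 and CC-223+Enza libraries alone called 23 lower and 1 higher, against 19.1% and 17.3% of all genes in that fit. In the common fit 31 of 34 genes were below 0, with a median of -0.20, and 22 lay below CC-223 with no overlap, against 22.8% of all genes tested. PRIM2 was at 53.2, 50.1 and 49.4 CPM with CC-223 and at 33.0, 33.6 and 33.5 CPM with CC-223+Enza. In the common fit PRIM2 and CLSPN were called lower in both of these comparisons and with Enza against Ctrl; in fits of the 2 groups alone both calls were lost for CC-115+Enza, and that of PRIM2 for Enza against Ctrl (adjusted p = 0.056). Added to NU7441, Enza gave 0 calls (6.08% of all genes tested were called in either direction), with 2 genes at an unadjusted p under 0.05, against 14.9% of all genes tested, and 0 called by DESeq2.

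The interaction terms ask whether an inhibitor's effect differed with Enza present. None of the 34 genes passed in edgeR's test for NU7441 (0% of all genes tested were called), CC-115 (3.27%) or CC-223 (0.376%). An unadjusted p under 0.05 was found in 2, 2 and 1 genes, against 6.77%, 17.4% and 9.71% of all genes tested. DESeq2 called 0, 1 and 0, with no shares of all genes given beside them. The nearest was POLE2 for CC-115, at 0.64 ± 0.20 (SE, adjusted p = 0.076), which DESeq2 called. It was also called without Enza replicate 2 and without Enza replicate 3, and without CC-115+Enza replicate 1 the 1 gene called was POLA1 in its place (0.325 ± 0.187 with every library; SE). CLSPN had an interaction with CC-115 of -0.03 ± 0.20 and PCNA of 0.09 ± 0.23 (SE).

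**Figure D4:**
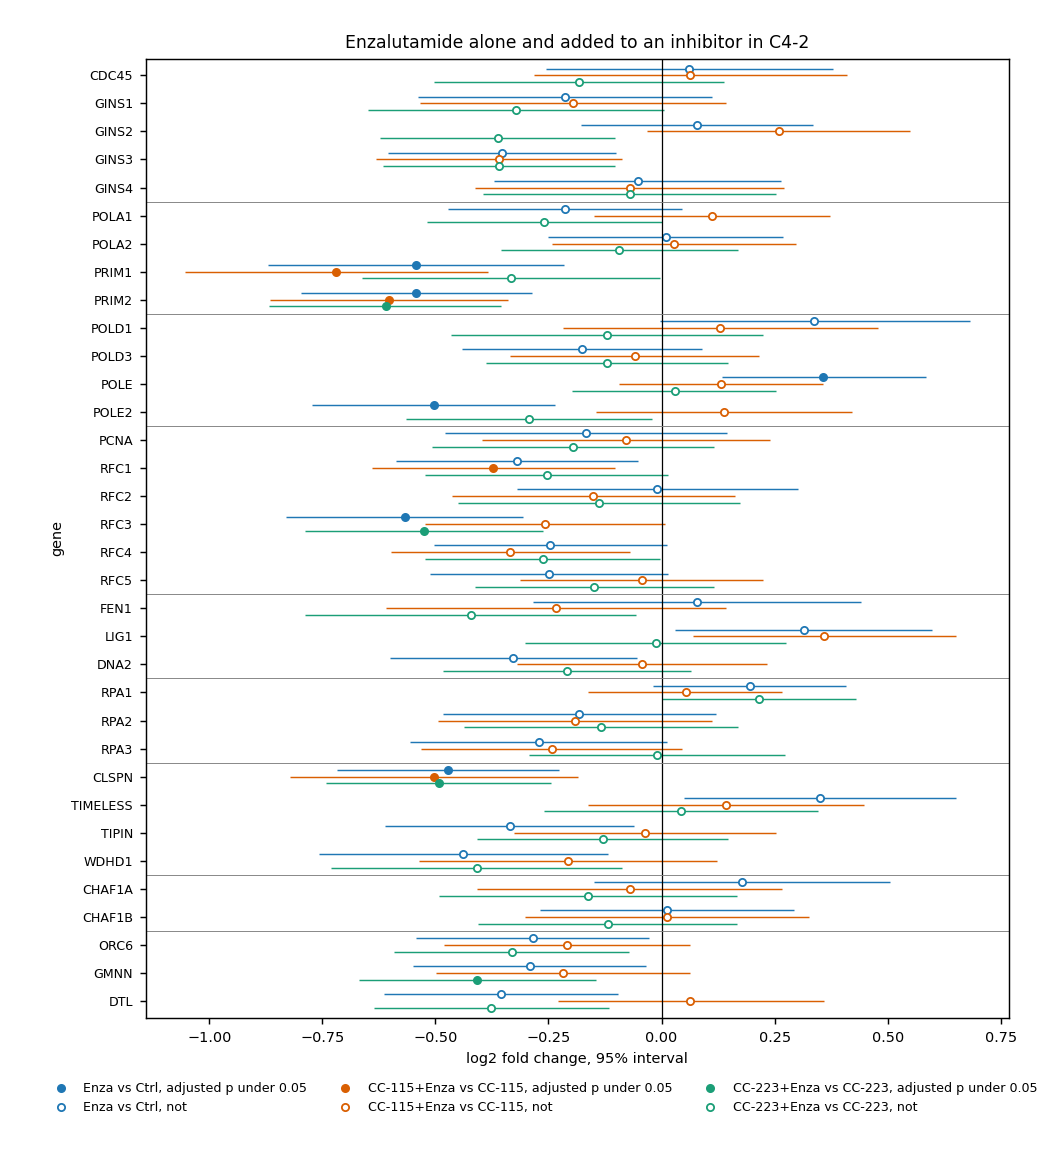
Log2 fold change (x axis, with approximate 95% intervals) of the 34 genes (rows, by role) for Enza against Ctrl (blue), CC-115+Enza against CC-115 (orange) and CC-223+Enza against CC-223 (green) in C4-2; filled points have an adjusted p under 0.05. Most points are open and within 0.5 of 0, and PRIM2 and CLSPN are filled and below 0 in all 3 comparisons.

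CC-115 lowered the genes in 22Rv1 too. Against Control 31 of 34 were called lower, against 20.7% of all genes tested. Each of these was also lower in C4-2, an overlap nearly fixed beforehand, as 33 of the 34 were lower there. POLE was again higher, against 20.2% of all genes tested. The median log2 fold change was -1.16 (all genes -0.02), and the summed level went from 2796 ± 34.2 CPM (SD, n = 3) to 1524 ± 64.3 CPM (SD, n = 2). CLSPN was at 20.2, 22.2 and 21.5 CPM in Control and at 4.09 and 2.71 CPM with CC-115 (-2.64 ± 0.23, adjusted p = 2.6e-04). PCNA was at 247.9, 237.2 and 192.8 CPM in Control and at 56.4 and 38.6 CPM with CC-115 (-2.25 ± 0.20, adjusted p = 2.9e-04). DTL was at 83.1, 81.6 and 73.8 CPM in Control and at 24.0 and 19.1 CPM with CC-115 (-1.88 ± 0.15, adjusted p = 2.2e-04). The control and treated libraries of these genes did not overlap. By FPKM, RFC2 stood first with CC-115 (64.3 ± 1.71), and POLE stood 5th (19.95 ± 3.998; SD, n = 2), after 17th in Control.

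In 22Rv1 the other classes were led by FEN1 (-1.84 ± 0.13, adjusted p = 1.5e-04), GINS1 (-1.62 ± 0.19, adjusted p = 6.8e-04), POLE2 (-1.45 ± 0.29, adjusted p = 0.0061), POLA1 (-1.45 ± 0.22, adjusted p = 0.0019), CHAF1B (-1.26 ± 0.13, adjusted p = 4.6e-04) and RPA3 (-1.15 ± 0.23, adjusted p = 0.0059; SE throughout). POLD1, at 128.4, 127.3 and 154.8 CPM in Control and at 92.3 and 119.8 CPM with CC-115, was not called (-0.37 ± 0.16, adjusted p = 0.095). DNA2 was not called either (-0.88 ± 0.32, adjusted p = 0.056): its treated libraries, at 14.6 and 7.95 CPM, differed widely and overlapped Control at 22.5, 25.4 and 14.6 CPM. POLE was at 222.0, 240.2 and 270.2 CPM in Control and at 284.3 and 378.2 CPM with CC-115 (0.44 ± 0.15, adjusted p = 0.047). That call was lost with scaling by total counts (0.28), without CC-115 replicate 2 (0.22), and without Control replicate 1 or 2 (0.38 and 0.42). The calls of RPA2 and PRIM1 were lost without any 1 of the same 3 libraries. Proliferation markers were lower in 9 of 10, against 20.7% of all genes tested, with a median of -1.41. Of the 10 markers of other cell types 3 passed the filter in 22Rv1, and 1 of these was called higher, against 20.2% of all genes tested. The summed level of all 10 was 4.16 to 6.84 CPM in Control and 12.5 to 15.6 CPM with CC-115. Their part in the result was not tested.

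The fall was smaller in 22Rv1 than in C4-2 for most of the genes. The difference between the lines, tested as an interaction in a joint fit, was called in 23 of 34 genes, each with the less negative value in 22Rv1, against 15.2% of all genes tested called in that direction. The median difference was 0.96 (all genes 0.00), and 30 of 34 genes had the smaller change in 22Rv1. GINS2 differed most, by 2.06 ± 0.13 (SE, adjusted p = 1.5e-07): it was at 101.2, 98.7 and 90.8 CPM in 22Rv1 Control and at 35.6 and 37.9 CPM with CC-115, 37.9% of Control, beside 9.43% in C4-2. DTL followed with 1.98 ± 0.19 (adjusted p = 6.9e-06), CDC45 with 1.97 ± 0.14 (adjusted p = 4.4e-07) and CLSPN with 1.957 ± 0.196 (adjusted p = 1.3e-05). The remaining classes were led by CHAF1B with 1.61 ± 0.12 (adjusted p = 1.1e-06), FEN1 with 1.32 ± 0.13 (adjusted p = 8.7e-06), RFC5 with 1.22 ± 0.13 (adjusted p = 1.6e-05), POLD1 with 1.16 ± 0.15 (adjusted p = 9.0e-05) and POLA2 with 1.11 ± 0.14 (adjusted p = 6.9e-05). All 5 helicase partners, all 4 fork protection genes, both CAF-1 subunits and the 3 licensing genes were among the 23. In RPA only RPA1 passed (0.37 ± 0.13, adjusted p = 0.049), and it was lost in 13 of 17 alternative fits.

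No difference between the lines was called for 11 genes. Among them were POLE (0.06, 95% interval -0.23 to 0.35), RPA2 (0.07, -0.19 to 0.33), RFC1 (-0.11, -0.46 to 0.25), PRIM2 (-0.01, -0.46 to 0.44) and POLA1 (-0.12, -0.54 to 0.31). The uncalled genes not listed here were all above 0, and equal effects are not shown for them. The lines also differed without treatment. LIG1 was at 26.5 ± 2.63 FPKM in 22Rv1 Control and 5.28 ± 0.07 in C4-2 Ctrl, and POLE at 14.7 ± 1.46 and 5.94 ± 0.24, while CLSPN was at 3.94 ± 0.18 and 13.8 ± 0.48 (SD, n = 3 each; the tables were scaled apart, and this contrast was not tested). With CC-115, CLSPN was last of the 34 by FPKM in both lines, at 0.63 ± 0.18 (n = 2) and 0.60 ± 0.02 (n = 3). Proliferation markers gave 2 negative and 1 positive calls of 10 for the difference between the lines, with a median of 0.19. Of all 22922 genes tested 2822 were called negative and 3479 positive.

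**Figure D5:**
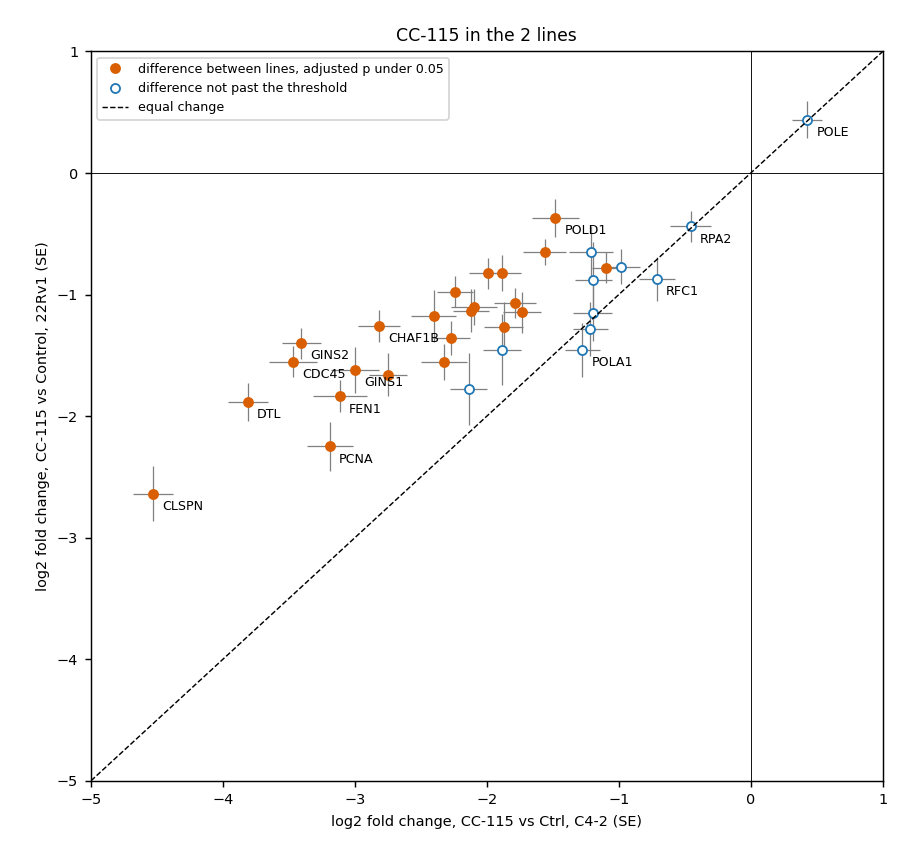
Log2 fold change with CC-115 in C4-2 (x axis) and 22Rv1 (y axis) of the 34 genes, with SE bars; filled orange points have a difference between the lines with an adjusted p under 0.05, and the dashed line marks equal change. The orange points lie above the line, with the largest gaps for GINS2, DTL, CDC45 and CLSPN, while POLE, RPA2 and RFC1 lie near it.

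Other genes of the fork, taken from a list of 34 that are not among the genes above, moved with them. With CC-115 in C4-2 29 of 34 were lower and 2 higher (median -1.02), against 26% and 27.6% of all genes tested. With CC-223 20 were lower and 1 higher (median -0.52), beside 2497 and 2959 of the 22860 genes tested. With NU7441 1 was lower and 0 higher, beside 254 and 522 of these genes. In 22Rv1 20 were lower and 3 higher (median -0.88), against 20.7% and 20.2% of all genes tested there. MCM10, which helps to activate the helicase, was at 162.6, 148.6 and 145.3 CPM in Ctrl and at 7.05, 6.53 and 7.11 CPM with CC-115 (-4.46 ± 0.18, adjusted p = 2.4e-16). The kinase CDC7, which fires origins, the histone chaperone ASF1B and the alternative loader subunit DSCC1 changed by -3.143 ± 0.161, -3.001 ± 0.159 and -2.817 ± 0.149 (SE). The 2 of this list that rose with CC-115 in C4-2 were the small polymerase delta subunit POLD4 (0.85 ± 0.14, adjusted p = 7.9e-06) and the clamp subunit HUS1 of the damage checkpoint (0.48 ± 0.12, adjusted p = 0.0010; SE), both named after their values were seen.

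DNA polymerases that work outside the fork moved in both directions. Of 13 such genes 9 were higher and 3 lower with CC-115 in C4-2, with a median of 0.44, against 27.6% of all genes higher and 26% lower. In 22Rv1 3 were higher and 2 lower (median -0.06), near the 20.2% and 20.7% of all genes. With CC-223 2 were higher and 3 lower, beside 2959 and 2497 of the 22860 genes tested. POLM, a polymerase of end joining, was at 14.5, 15.4 and 15.6 CPM in Ctrl and at 51.0, 55.5 and 57.5 CPM with CC-115 (1.85 ± 0.14, adjusted p = 1.9e-11), and in 22Rv1 it rose by 2.22 ± 0.16 (adjusted p = 1.5e-04; SE). POLL, a related repair polymerase, rose by 1.10 ± 0.10 in C4-2 and 2.13 ± 0.16 in 22Rv1. POLI, of lesion bypass, rose by 0.93 ± 0.12 in C4-2. POLQ, which acts in microhomology-mediated end joining, fell by 1.25 on the log2 scale in C4-2 and by 1.02 in 22Rv1. Of 10 prostate epithelial markers 7 were higher and 3 lower with CC-115 in C4-2, against 27.6% and 26% of all genes tested. Their summed level was 5618 ± 154 CPM in Ctrl and 12580 ± 207 CPM with CC-115 (SD, n = 3 each). In 22Rv1 4 were higher and 2 lower, against 20.2% and 20.7% of all genes tested. The sums there were 2308 ± 59.0 CPM in Control (SD, n = 3) and 2499 ± 212 CPM with CC-115 (SD, n = 2).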

How the data were processed

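Total RNA libraries of C4-2 (24) and 22Rv1 (5) were prepared with a stranded kit that depletes ribosomal RNA, per the labels' protocols. The authors deposited raw counts per Ensembl gene, in 1 table for each line. Alignment to hg19 used STAR 2.5.2a, with counting by featureCounts 1.5.0-p3 and testing by DESeq2 1.14.1, per the submitters' processing notes; the annotation release is not given in the sources used here, nor is the strand setting. Here counts were scaled by TMM and genes were filtered with filterByExpr. They were tested with the edgeR 4.0.16 quasi-likelihood test (R 4.3.3 with limma 3.58.1) and adjusted by Benjamini-Hochberg over all genes, which were 22860 for C4-2, 19392 for 22Rv1, and 22922 where both lines were fitted jointly from Ctrl, CC-115 and 22Rv1 libraries. All 24 C4-2 libraries shared 1 fit. The SE is the absolute log2 fold change over the square root of F, and 95% intervals are normal ones from it. The code was tested on simulated counts. FPKM divides scaled CPM by kilobases of merged exons. Promoters came from RefSeq (GRCh38.p14).

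Full statistics are given, per comparison, for the called gene of each role class with the largest change, for genes called against the majority and for uncalled genes where at most 5 remained; of other lists, for up to 4 called genes with the largest change. The genes and lists were chosen with earlier results of these data known. Alternatives were RLE factors, total counts, DESeq2 1.42.0, no filter or 1 CPM in a whole group, a replicate block, fits of the 2 groups alone, each library left out, and libraries that stood apart left out together. Python 3.11.15, pandas 2.3.3, numpy 2.4.6 and matplotlib 3.10.9 were used. Of the columns of values 0 had no sample.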

Additional observations from a re-analysis of the deposited data

Results flagged for a closer look

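The effect of CC-115 differed between 22Rv1 and C4-2, by an interaction test in a joint fit, in 23 of the 34 genes. Of the genes given in full, the difference on the log2 scale (22Rv1 minus C4-2) was 2.06 in GINS2, 1.98 in DTL, 1.957 in CLSPN, 1.61 in CHAF1B, 1.32 in FEN1, 1.22 in RFC5, 1.16 in POLD1, 1.11 in POLA2 and 0.37 in RPA1. The tables of the lines were deposited apart and only 2 treated 22Rv1 libraries were available, so that line and table cannot be told apart.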

How the results depend on the processing

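The numbers of genes called for CC-115 against Ctrl (33 to 34 when leaving out 1 library), CC-223 against Ctrl (27 to 30), both with Enza against Enza (32 to 33 and 25 to 29), CC-115 against NU7441 and CC-223 (32 to 33 and 31 to 32), the combinations (29 to 32), 22Rv1 (29 to 33) and the line difference (21 to 24) stayed within 1.5 times of the value reported under every alternative run. The other numbers moved, and the cause was not tested. Shares of all genes called in the same fits are not set beside them here. A changed number is therefore not shown to be particular to these genes. For NU7441 against Ctrl (0 reported) it was 3 with total counts, 3 with DESeq2, 5 without a filter, 4 with the stricter filter, 3 in a fit of the 2 groups, 22 without Enza replicate 1 and CC-115+Enza replicate 1, 11 without NU7441 replicate 2 as well, and 0 to 5 leaving out 1 library. For Enza against Ctrl (6) it was 10 with total counts, 10 with the stricter filter, 11 without those Enza libraries, 1 with 2 groups and 3 to 8 leaving out 1. For NU7441+Enza it was 2 without a filter and 0 to 3 leaving out 1 against Enza; against NU7441 it was 1 with total counts, 1 with the stricter filter, 2 and 13 without the libraries that stood apart, 2 with 2 groups and 0 to 1 leaving out 1. For CC-115+Enza against CC-115 (4) it was 0 with 2 groups and 2 to 8 leaving out 1; for CC-223+Enza against CC-223 (4) it was 16 without those Enza libraries, 24 with 2 groups and 2 to 3 leaving out 1. The CC-115 interaction gave 1 with total counts, 1 with DESeq2, 1 with either filter and 1 without those Enza libraries, and 0 to 1 leaving out 1. For NU7441 against CC-223 (4) it was 9 with total counts, 9 with DESeq2, 12 without a filter, 15 with the stricter filter, 27 and 30 without the libraries that stood apart, 9 with 2 groups and 1 to 19 leaving out 1.

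Of the values of single genes, RPA2 changed sign in CC-115 against CC-223 (0.027, 0.042, 0.033 and 0.047 without CC-115 replicate 2 or 3 or CC-223 replicate 1 or 3; -0.081 to 0.047 leaving out each library in turn) and between the combinations (0.152 without CC-115+Enza replicate 1, and 0.152 without Enza replicate 1 as well; -0.271 to 0.152 leaving out each library in turn). Scaling by total counts moved the all-gene median by about 0.1 or more in some comparisons. Against Enza it was then 0.26 for CC-115+Enza and 0.17 for CC-223+Enza. Against the inhibitor alone it was 0.17 for CC-115+Enza and 0.10 for CC-223+Enza. It was 0.11 for the CC-115 interaction, -0.18 for 22Rv1 and -0.26 for the line difference. The median moved less for NU7441+Enza, to 0.044 against Enza and 0.03 against NU7441, and for CC-115+Enza against CC-223+Enza, to 0.078. All genes called higher and lower in 22Rv1 then numbered 3000 and 4959, beside 3919 and 4006, and for the line difference 1966 and 4879, beside 3479 and 2822; the replication genes called for the line difference numbered 20. Replicate numbers did not pair the libraries: deviations of same-numbered C4-2 libraries had a median correlation of -0.005 (-0.342 to 0.14 over 84 pairs), against 0.002 for different numbers. With a replicate block the number called was 34 for CC-115 against Ctrl, 28 for CC-223, 33 in 22Rv1 and 22 for the line difference. Counting error and the spread between libraries were not separated, and 22Rv1 had 2 treated libraries.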
